A study of Mus musculus with 6 samples.

Results

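Metallothioneins and zinc transporters were examined in the livers of male C57BL/6 mice. The genes were chosen by symbol: the metallothioneins Mt1 and Mt2, the transcription factor Mtf1, the zinc importers Slc39a14, Slc39a4 and Slc39a8, and the zinc exporters Slc30a1 and Slc30a10. Of these 8 genes, 6 were measured, out of 22180 genes in all, each by 1 array probe set that names the gene alone. Slc30a1 and Slc30a10 appeared only in probe sets that name several genes, 2 each, and their levels were not analysed here. The group was put together with the SHH against GFP values of Mt1 and Mt2 known, so the values of the members in that contrast are given as a description, without a test.

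Of the 6 mice, 3 had livers expressing Sonic Hedgehog (SHH, mice 26, 28 and 31) and 3 had livers expressing green fluorescent protein (GFP, mice 6, 13 and 21), with 1 array per mouse. SHH is a secreted ligand of the Hedgehog pathway. The series' design text names hydrodynamic transfection, in which a large volume of DNA solution is injected rapidly, as the way SHH was brought into the liver, and it does not say how GFP was. The labels used here do not state the ages, the time after transfection, the promoter of either transgene or the share of cells that took it up. The study asked how hepatic SHH affects fibrosis and genes related to it.

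Metallothioneins are small cysteine-rich proteins that bind zinc, copper and cadmium and buffer free metal in the cell. In the mouse, zinc taken into a cell activates MTF1, which binds metal response elements in the promoters of Mt1 and Mt2 and raises their transcription, and glucocorticoids, interleukin-6 and oxidants raise it too. Zinc enters the cytosol through ZIP transporters (Slc39a genes) and leaves it through ZnT transporters (Slc30a genes), and the liver takes up zinc during inflammation through ZIP14, the product of Slc39a14.

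The promoters of Mt1 and Mt2, whose signals differed most between the groups among the members, are shown beside that of their neighbour Mt3, whose signal did not separate the groups. All 3 genes lie on the plus strand of chromosome 8, and in the RefSeq table the Mt1 gene begins 5315 bases after the end of Mt2. Each sequence runs from 250 bases before a RefSeq transcription start to 30 bases after it (GRCm38.p6), at chr8:94178839-94179118 for Mt1, chr8:94172368-94172647 for Mt2 and chr8:94152357-94152636 for Mt3. The Mt1 gene itself begins at base 94178883 in the RefSeq table, inside the printed stretch, so its window follows a later start. Capitals mark the core of the metal response element, TGCACNC or TGCGCNC, read on either strand.
Mt1: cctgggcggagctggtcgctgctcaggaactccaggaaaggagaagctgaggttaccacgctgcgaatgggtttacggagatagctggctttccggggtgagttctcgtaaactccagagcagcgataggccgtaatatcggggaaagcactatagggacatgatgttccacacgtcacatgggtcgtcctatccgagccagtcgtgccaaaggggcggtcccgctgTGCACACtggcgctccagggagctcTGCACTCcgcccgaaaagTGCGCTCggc
Mt2: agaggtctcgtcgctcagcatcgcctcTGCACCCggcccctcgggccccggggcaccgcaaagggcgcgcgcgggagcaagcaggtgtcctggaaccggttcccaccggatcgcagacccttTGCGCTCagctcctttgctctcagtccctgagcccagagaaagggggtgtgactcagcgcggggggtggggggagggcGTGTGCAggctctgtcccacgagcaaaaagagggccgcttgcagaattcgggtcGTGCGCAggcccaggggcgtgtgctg
Mt3: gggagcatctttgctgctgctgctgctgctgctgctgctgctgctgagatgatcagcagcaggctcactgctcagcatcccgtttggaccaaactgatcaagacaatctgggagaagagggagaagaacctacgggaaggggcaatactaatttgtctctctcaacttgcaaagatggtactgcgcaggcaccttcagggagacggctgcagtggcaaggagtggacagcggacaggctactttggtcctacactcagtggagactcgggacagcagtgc

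The Mt1 window held 3 such cores and the Mt2 window 4, counted over 300 bases (50 after the start). The Mt1 count holds for the start used, and a window at the first base of the gene was not counted. The Mt3 window held 1, which runs past the end of the printed stretch and is not in capitals, and that of Mt4, the fourth gene of the cluster, held 1. Among 32851 RefSeq promoter windows of that length, 25.7% held at least 1 core, 1.97% at least 3 and 0.517% at least 4. The Slc30a1 window held 2 cores and the Slc30a10 window 3, of which a pair overlaps on opposite strands. The Mtf1 window held 0, and the windows of the 2 Slc39a8 starts held 0 and 1. A core of the antioxidant response element (TGACNNNGC) occurred once in the Mt2 window and in 12.4% of all windows, and a STAT site (TTCNNNGAA) occurred in neither metallothionein window and in 8.3% of all windows. These are matches of letters and were not tested for binding.

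All values below are log2 signals after RMA, the normalization used by the authors, so a difference of 1 is a doubling of signal. Array medians were close to each other, at 4.32 to 4.40. Shh itself read 4.57, 4.28 and 4.63 in SHH mice 26, 28 and 31, against 3.86, 3.43 and 3.67 in GFP mice 6, 13 and 21, so each SHH liver lay above each GFP liver. The difference was 1.79-fold (limma, adjusted p = 0.356). The Shh signal was dim, below the array median in SHH 28 and in every GFP liver. At an adjusted p of 0.05, limma found 0 of 22180 genes higher in SHH livers and 0 lower (0% each way), and at an unadjusted p of 0.05 it found 738 higher (3.33%) and 889 lower (4.01%). In 5.26% of all genes every SHH liver lay above every GFP liver, and in 7.25% every SHH liver lay below. The difference between the groups had a median of -0.03 over all genes. The hepatocyte marker Alb, the albumin gene, read 13.66 to 13.72 in SHH livers and 13.67 to 13.71 in GFP livers. It was the highest gene signal of each array, so it marks the tissue and cannot be read as a measure of hepatocyte content.

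Mt2 had the highest mean difference of the measured members. Its log2 signal was 8.21, 12.24 and 11.45 in SHH mice 26, 28 and 31, against 6.11, 6.43 and 6.45 in GFP mice 6, 13 and 21. The groups did not overlap, SHH 26 lay well below the other two SHH livers, and the gap between the lowest SHH and the highest GFP liver was 1.75. The means were 10.63 ± 2.14 in SHH livers and 6.33 ± 0.19 in GFP livers (SD, n = 3 each), a 19.7-fold difference in signal (4.30 on the log2 scale, 95% interval 2.40 to 6.20). The SHH livers spanned 4.04 and the GFP livers 0.34, so the spread lay almost wholly among SHH livers.

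Mt1, which encodes the second hepatic metallothionein, had the same order of SHH livers. It read 8.88, 11.28 and 10.91 in SHH mice 26, 28 and 31, against 7.32, 7.67 and 6.69 in GFP mice 6, 13 and 21. The groups again did not overlap, with a gap of 1.20. The means were 10.35 ± 1.29 in SHH livers and 7.23 ± 0.50 in GFP livers (SD, n = 3 each), an 8.72-fold difference (3.12 on the log2 scale, 95% interval 1.88 to 4.37). Among GFP livers the order was not shared: GFP 21 was highest for Mt2 and lowest for Mt1. Mt1 and Mt2 are similar in sequence, and how much their probe sets share signal was not tested.

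Without SHH 26 the differences were 3.86 for Mt1 and 5.51 for Mt2, and without SHH 28 they were 2.66 and 3.50. In a whole liver, more RNA per cell and more cells of a type cannot be told apart.

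**Figure D1:**
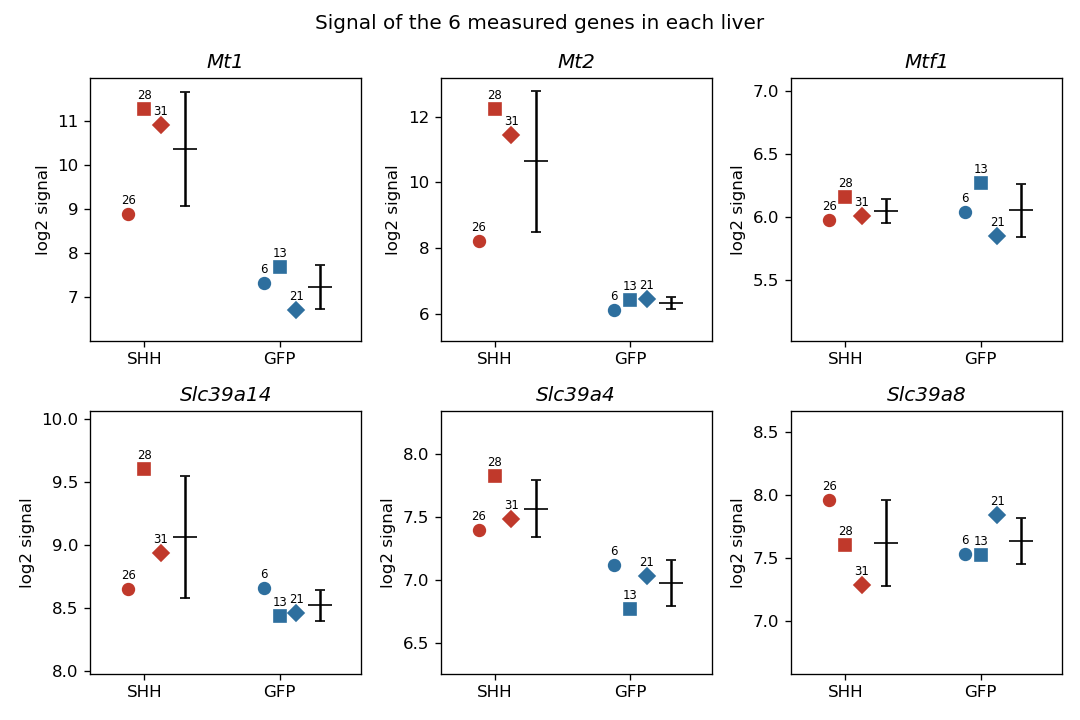
Log2 signal of the 6 measured genes in each liver (points, numbered by mouse), with SHH livers left of GFP livers; bars are means and SD of 3 mice. Mt1 and Mt2 of SHH 26 lie between the GFP livers and the other SHH livers, and Mtf1 and Slc39a8 overlap between the groups. Axes differ between panels.

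Set against all genes of the same liver, both metallothioneins stood near the top in every SHH liver, SHH 26 included. Mt2 exceeded its GFP mean by 1.87 in SHH 26 (3.66-fold), by 5.91 in SHH 28 (60.2-fold) and by 5.12 in SHH 31 (34.7-fold). These differences ranked 3, 1 and 1 among 22180 genes. Mt1 exceeded its GFP mean by 1.65, 4.05 and 3.68 in the same livers (3.13-fold, 16.6-fold and 12.8-fold), which ranked 6, 5 and 6. Both genes were chosen with their SHH against GFP values known, so these ranks are a description only.

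**Figure D2:**
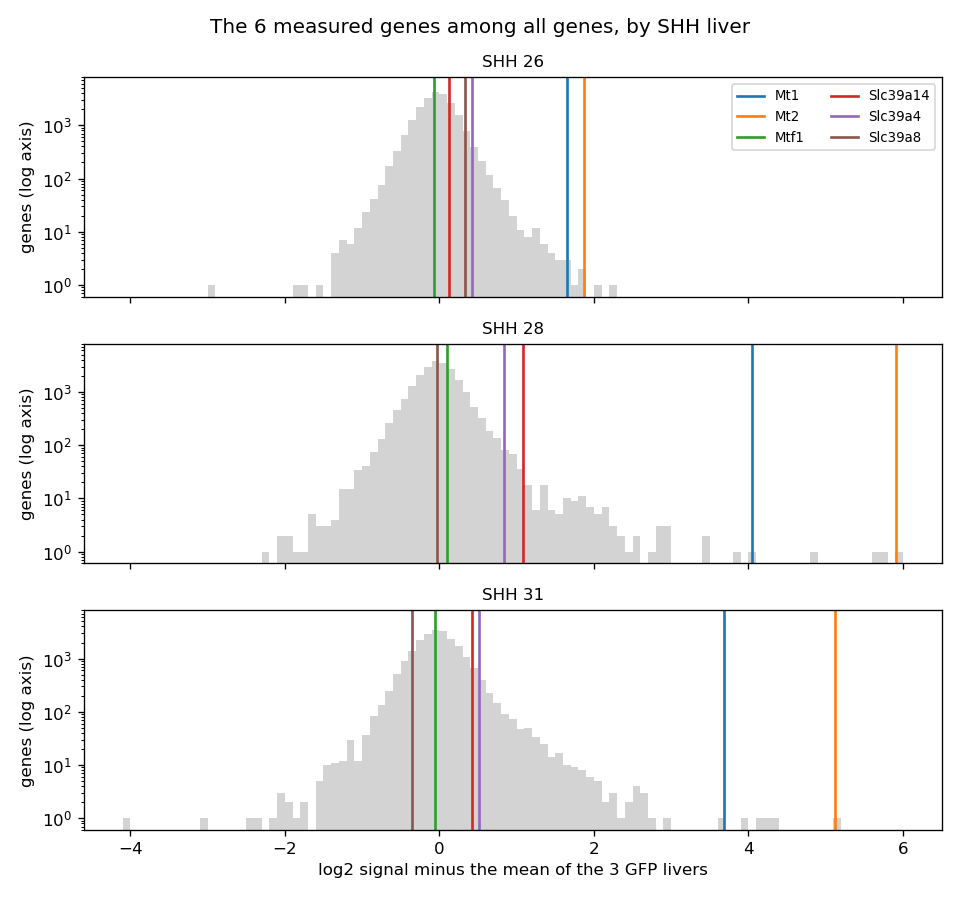
Number of genes (log axis) by the difference between 1 SHH liver and the mean of the 3 GFP livers, in log2 units, for SHH 26, SHH 28 and SHH 31; vertical lines mark the 6 measured members. The lines of Mt1 and Mt2 lie at the upper end of each panel (1.65 and 1.87 in SHH 26), and that of Mtf1 lies near 0 (-0.07 to 0.10).

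Mtf1, the metal-sensing activator of Mt1 and Mt2, read 5.98, 6.16 and 6.01 in SHH mice 26, 28 and 31, against 6.04, 6.27 and 5.85 in GFP mice 6, 13 and 21. All 3 SHH livers lay within the GFP range. The difference of means was -0.00 (95% interval -0.33 to 0.32). The MTF1 protein is known to be activated by zinc binding to it. The probe set lay above the array median in every liver.

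Slc39a14 encodes ZIP14, an importer of zinc, iron and manganese. It read 8.65, 9.60 and 8.94 in SHH mice 26, 28 and 31, against 8.66, 8.44 and 8.46 in GFP mice 6, 13 and 21. SHH 28 and SHH 31 lay above all GFP livers, and SHH 26 lay just under GFP 6, so the groups overlapped. The means were 9.06 ± 0.49 in SHH livers and 8.52 ± 0.12 in GFP livers (SD, n = 3 each), a 1.46-fold difference (0.54 on the log2 scale, 95% interval 0.03 to 1.05). Without SHH 28 the difference was 0.27.

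Slc39a4 encodes ZIP4, best known as the importer that absorbs dietary zinc in the intestine. It read 7.39, 7.82 and 7.48 in SHH mice 26, 28 and 31, against 7.12, 6.77 and 7.03 in GFP mice 6, 13 and 21. Every SHH liver lay above every GFP liver, with a gap of 0.27. The means were 7.56 ± 0.23 in SHH livers and 6.98 ± 0.18 in GFP livers (SD, n = 3 each), a 1.5-fold difference (0.59 on the log2 scale, 95% interval 0.23 to 0.95).

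Slc39a8 encodes ZIP8, an importer of zinc, manganese and cadmium. It read 7.96, 7.60 and 7.28 in SHH mice 26, 28 and 31, against 7.53, 7.52 and 7.84 in GFP mice 6, 13 and 21. SHH 26 was above and SHH 31 below all GFP livers, while SHH 26 was the lowest SHH liver for Mt1 and Mt2. The difference of means was -0.01 (95% interval -0.43 to 0.40).

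Of the 6 measured members, 3 (Mt1, Mt2 and Slc39a4) had every SHH liver above every GFP liver, against 5.26% of all genes, and 0 had every SHH liver below (7.25% of all genes); the members were chosen on this contrast, so nothing is read from that count. Mean signal was higher in SHH livers for 4 of the 6 (43.8% of all genes). In SHH 26, 4 members lay above all GFP livers (20.6% of all genes) and 0 below them (28.8%). In SHH 28, 4 lay above (25.4%) and 0 below (29.2%), and in SHH 31, 4 lay above (26%) and 1 below (31.6%). Mt1, Mt2 and Slc39a4 were above in each liver, joined by Slc39a8 in SHH 26 and by Slc39a14 in SHH 28 and SHH 31. For Mt1, Mt2, Slc39a14, Slc39a4 and Mtf1, SHH 28 was the highest and SHH 26 the lowest SHH liver. The range among SHH livers exceeded that among GFP livers for Mt1, Mt2, Slc39a14, Slc39a4 and Slc39a8, and was smaller for Mtf1 (0.17 against 0.42).

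The other metallothionein genes gave low signals that overlapped between the groups. Mt3, a metallothionein best known from brain, read 3.46, 3.98 and 4.19 in SHH mice 26, 28 and 31, against 3.81, 3.89 and 4.36 in GFP mice 6, 13 and 21 (difference -0.14; limma, adjusted p = 0.925). Mt4, known from squamous epithelia, read 3.12 to 3.26 in SHH livers and 3.08 to 3.57 in GFP livers (difference -0.17; limma, adjusted p = 0.86). Both genes lay below the array median in all 6 livers, and arrays compress the differences of such dim probe sets.

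Among the other zinc transporters, 19 genes were measured (11 ZIP and 8 ZnT genes). Of these, 11 had higher and 8 lower means in SHH livers, with a median difference of 0.03, against -0.03 over all genes. In limma 0 of 19 passed in either direction over all genes. At an unadjusted p of 0.05 there was 1 in each direction, against 3.33% of all genes higher and 4.01% lower. Slc39a6, which encodes the plasma membrane importer ZIP6, read 4.88, 4.84 and 5.02 in SHH mice 26, 28 and 31, against 4.43, 4.24 and 4.49 in GFP mice 6, 13 and 21. Its groups did not overlap, at a 1.44-fold difference (limma, unadjusted p = 0.00258, adjusted p = 0.409). Slc39a2, which encodes the importer ZIP2, read 4.38, 4.61 and 4.59 in SHH livers, against 5.08, 5.49 and 5.03 in GFP livers. Every SHH liver lay below every GFP liver (difference -0.67, limma, unadjusted p = 0.00206, adjusted p = 0.409). Both signals were dim. Slc39a6 lay below the array median in GFP 13, and Slc39a2 lay close to it in SHH 26 (4.38 against 4.33).

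SHH 31 was the highest SHH liver for Slc39a6 and SHH 28 for Slc39a2, and the SHH livers spanned 0.18 for Slc39a6 and 0.22 for Slc39a2. Slc39a12 also had every SHH liver above every GFP liver, by a difference of 0.10, but it lay below the array median in all livers (limma, adjusted p = 0.902). Slc39a10, which MTF1 is known to repress in mouse cells, read 5.03 to 5.21 in SHH livers and 5.13 to 5.29 in GFP livers (difference -0.09; limma, adjusted p = 0.914).

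Of the 8 ZnT genes measured, 0 had groups that did not overlap. Over all genes, every SHH liver lay above in 5.26% and below in 7.25%, so nothing is read from 0 among 8. Slc30a5 and Slc30a6, whose products load zinc into the secretory pathway as a complex, were highest in SHH 28. Slc30a5 read 8.68, 9.33 and 8.41 in SHH mice 26, 28 and 31, while GFP livers read 8.45 to 8.61 (limma, adjusted p = 0.837). Slc30a6 read 7.85, 8.14 and 7.62 in SHH livers, against 7.56 to 7.81 in GFP livers (limma, adjusted p = 0.835). Slc30a9, a mitochondrial zinc transporter, was 7.98 in SHH 31, below the GFP livers at 8.31 to 8.47, and 8.45 and 8.39 in SHH 26 and SHH 28.

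**Figure D3:**
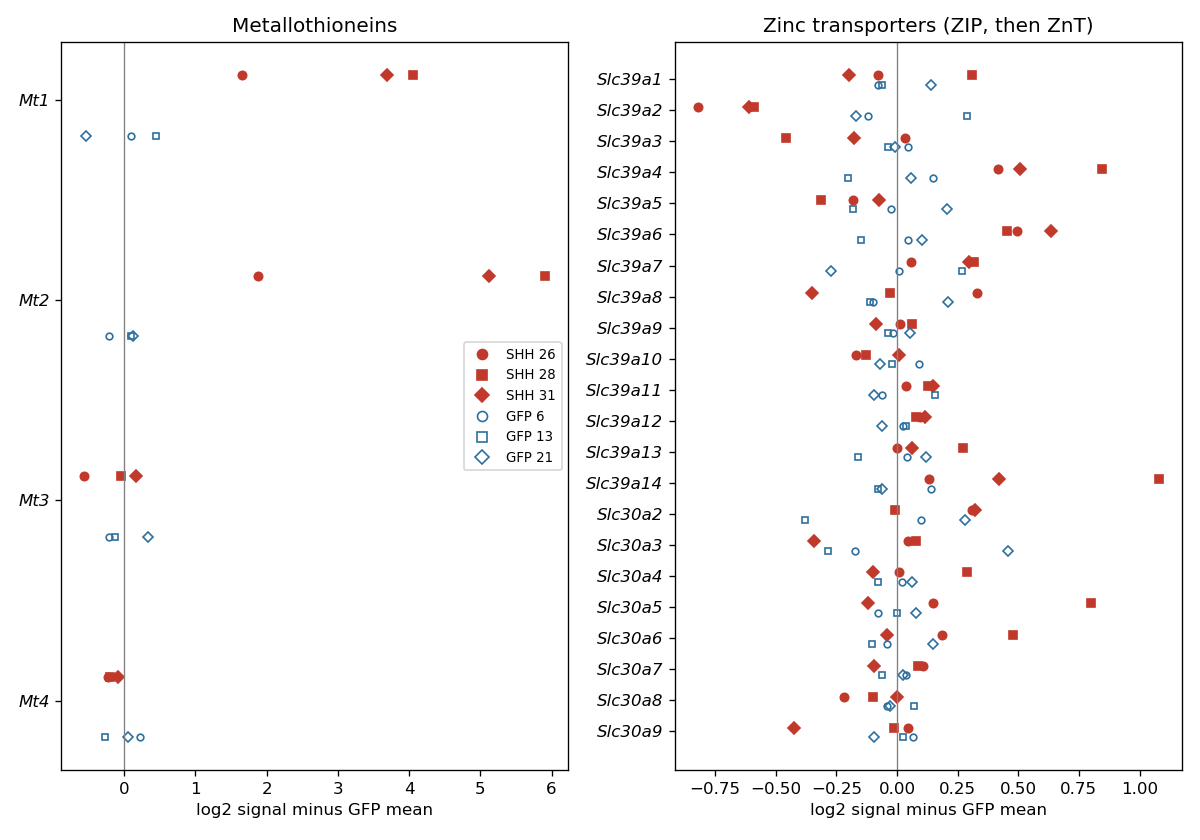
Log2 signal minus the GFP mean of each gene, for SHH livers (filled) and GFP livers (open), with 1 symbol per mouse. Mt1 and Mt2 of SHH livers lie at 1.65 to 5.91, while the zinc transporters lie between -0.82 (Slc39a2 of SHH 26) and 1.08 (Slc39a14 of SHH 28). The panels have different horizontal scales.

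Other genes tied to MTF1 were compared because Mt1 and Mt2 are its best known targets. Of 5 such genes that are not members, 2 had higher and 3 lower means in SHH livers and 0 passed in limma, with a median difference of -0.09. The 5 include Slc39a10 (difference -0.09), which MTF1 is known to repress, so the directions in this list do not share 1 meaning. Gclc, the catalytic subunit of the enzyme that limits glutathione synthesis, read 10.03, 9.64 and 9.84 in SHH mice 26, 28 and 31, against 10.27, 10.19 and 10.36 in GFP mice 6, 13 and 21. Every SHH liver lay below every GFP liver (difference -0.44; limma, unadjusted p = 0.0122, adjusted p = 0.556). Ndrg1 differed by 0.26 and the selenoprotein gene Selenow by -0.17, both with overlapping groups.

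Copper, manganese and iron genes were examined because metallothioneins bind copper and ZIP14 and ZIP8 carry manganese and iron. Of 8 copper genes, 4 had higher and 4 lower means, with a median of -0.00, and 0 passed. The copper-carrying plasma protein gene Cp, itself an acute phase gene, was 1.36-fold higher with groups that did not overlap (limma, adjusted p = 0.556), and Sod1 differed by -0.10. Of 6 manganese and iron genes that are not members, 4 had higher and 2 lower means, with a median of 0.13, and 0 passed. Tfr2, the iron-sensing transferrin receptor of hepatocytes, read 9.69, 10.02 and 9.84 in SHH mice 26, 28 and 31, against 9.54, 9.68 and 9.50 in GFP mice 6, 13 and 21 (limma, adjusted p = 0.704). The mitochondrial manganese enzyme gene Sod2 lay lower in every SHH liver, by a mean difference of -0.19 (limma, adjusted p = 0.791).

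Glucocorticoids are a known inducer of Mt1 and Mt2. Of 11 glucocorticoid-induced genes, 6 had higher and 5 lower means in SHH livers, the median difference was 0.01, and 0 passed in limma. Fkbp5, a chaperone partner of the glucocorticoid receptor, read 6.69, 6.84 and 6.45 in SHH mice 26, 28 and 31, against 5.52, 6.14 and 5.84 in GFP mice 6, 13 and 21 (limma, unadjusted p = 0.00138, adjusted p = 0.409). The transcription factor gene Zbtb16 read 8.91, 8.74 and 8.46 in SHH livers, against 6.38, 7.46 and 8.38 in GFP livers (limma, adjusted p = 0.556). For both genes every SHH liver lay above every GFP liver, and SHH 31 was the lowest SHH liver. Tsc22d3, another classical target, pointed the other way (6.08 to 6.25 in SHH livers, 6.02 to 7.18 in GFP livers), and so did Tdo2, by -0.24.

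Oxidant-responsive genes that NRF2 drives gave 4 higher and 5 lower means among 9 measured, a median difference of -0.01 and 0 calls in limma. Gclc, described above, is in this list too (difference -0.44, limma, unadjusted p = 0.0122, adjusted p = 0.556). It was the 1 gene of the 9 whose groups did not overlap, with every SHH liver below every GFP liver (7.25% of all genes). Hmox1, which breaks down heme, read 5.82, 6.16 and 6.98 in SHH mice 26, 28 and 31, against 6.18, 5.85 and 5.42 in GFP mice 6, 13 and 21, so only SHH 31 lay above the GFP range (limma, adjusted p = 0.776). Nqo1 differed by -0.17 and Gclm by -0.13.

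Acute phase genes, most of which hepatocytes make under interleukin-6, were higher in SHH livers for 12 of 13 genes measured (43.8% of all genes), with a median difference of 0.64. The gene that was lower was Hamp (difference -0.10). In limma 12 were higher at an unadjusted p of 0.05 (3.33% of all genes) and 0 passed the adjusted threshold. Every SHH liver lay above every GFP liver for 10 of the 13 (5.26% of all genes). This list was put together with its direction in these samples known and is not independent evidence. Socs3, the feedback inhibitor of STAT3 signalling, read 6.04, 7.16 and 6.64 in SHH mice 26, 28 and 31, against 5.43, 5.74 and 5.29 in GFP mice 6, 13 and 21 (limma, adjusted p = 0.409). The iron-binding lipocalin gene Lcn2 read 6.47, 11.31 and 10.06 in SHH livers, against 5.75, 5.19 and 6.13 in GFP livers (limma, adjusted p = 0.512). Socs3 and Lcn2 had the same order of SHH livers as Mt1 and Mt2. Saa3 and Apcs were 3.5-fold and 3.97-fold higher (limma, adjusted p = 0.409 each). Without SHH 26, the SHH liver with the smallest mean shift of this list, limma called 5 of its genes higher (Saa2, Saa3, Orm2, Lcn2 and Apcs). It called 30 of 22180 genes higher in that fit, and 0 when any other mouse was left out.

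The metallothioneins and the acute phase genes were then set side by side within each SHH liver. In SHH 26 the largest difference from the GFP mean among the 13 acute phase genes was 0.78 (Lcn2), under the 1.65 of Mt1 and the 1.87 of Mt2. In SHH 28 it was 5.72 (Saa2, named after its value was seen), between the 4.05 of Mt1 and the 5.91 of Mt2. In SHH 31 it was 4.37 (Lcn2), between 3.68 and 5.12. No measured acute phase gene exceeded Mt2 in any of the 3 livers, while 3 exceeded Mt1 in SHH 28 and in SHH 31 and 0 in SHH 26. Of the 14 genes listed, Saa1 was not measured and could not be compared. Array signals can be compressed near the top of the range, where genes such as Hpx lay already in GFP livers (12.12 to 12.20, against 6.11 to 6.45 for Mt2). The difference between SHH 26 and the other SHH livers rests on 1 mouse and was not tested.

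**Figure D4:**
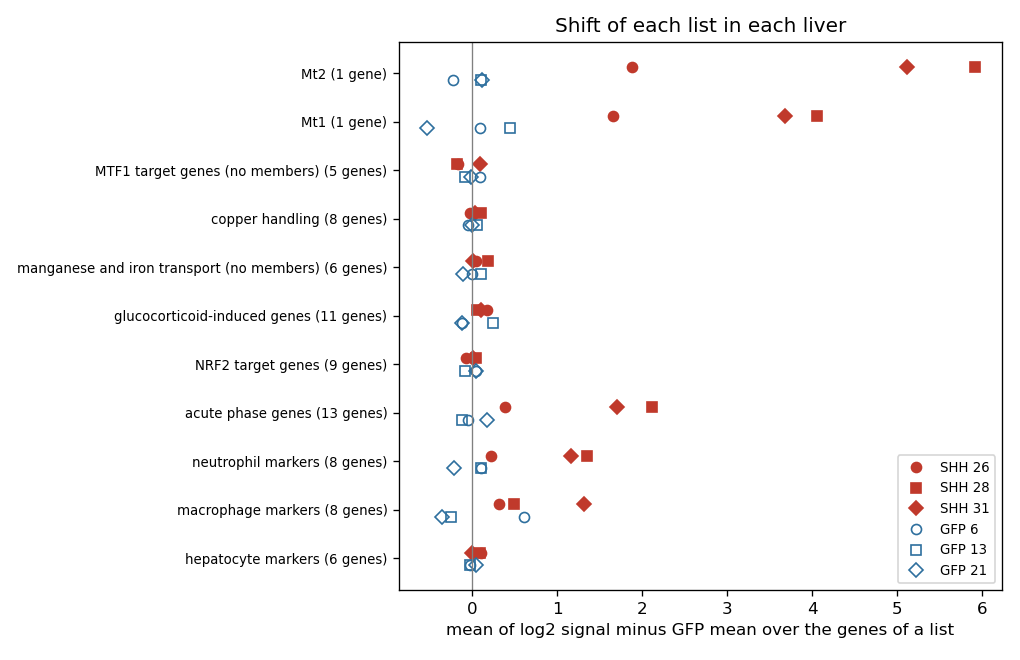
Mean over the genes of each list of the log2 signal minus the GFP mean, with Mt2 and Mt1 as single genes, for SHH livers (filled) and GFP livers (open). Acute phase genes and neutrophil markers follow the same order of SHH livers as Mt2 (26, 31, 28 from low to high). The order is not particular to them. Copper genes (-0.02, 0.03 and 0.10) and NRF2 genes (-0.07, 0.01 and 0.04) share it over a much smaller span. The lists of copper, glucocorticoid and NRF2 genes lie between -0.18 and 0.24, as do those of MTF1 targets and of manganese and iron genes without the members. The MTF1 list includes Slc39a10, which MTF1 is known to repress.

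By likeness of pattern, the genes closest to Mt2 were ranked by Pearson's r of log2 signals over the 6 arrays, among 10547 genes with a mean above the median of all genes, leaving out Mt1, Mt2 and predicted genes. The highest 8 were Hpx (0.996), which encodes the heme carrier hemopexin, Itih3 (0.996), Mgat4b (0.995), Ccdc134 (0.994), Apcs (0.994), Apof (0.991), Tmem176b (0.990) and Vtn (0.989). All 8 had every SHH liver above every GFP liver, which the choice by r to Mt2 favours, and the 6 points share the split into the same groups. Their differences were far smaller than the 4.30 of Mt2, from 0.09 for Mgat4b to 1.99 for Apcs. Hpx read 12.41, 13.11 and 12.90 in SHH mice 26, 28 and 31, against 12.12, 12.20 and 12.20 in GFP mice 6, 13 and 21. Among the members, Slc39a4 ranked 200 (r = 0.898) and Slc39a14 ranked 238 (r = 0.883), while Mtf1 (r = 0.138) and Slc39a8 (r = -0.361) were far from Mt2.

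Markers of other cell types were read in the same livers, and 0 passed in limma. The 8 neutrophil markers all had higher means in SHH livers (43.8% of all genes). In 4 of them (S100a8, S100a9, Retnlg and Cxcr2) every SHH liver lay above every GFP liver (5.26% of all genes). Their mean log2 level was 3.87, 5.0 and 4.82 in SHH mice 26, 28 and 31, against 3.76, 3.76 and 3.44 in GFP mice 6, 13 and 21. These signals were dim: Ly6g lay below the array median in all 6 livers, S100a8, S100a9 and Retnlg in 4 and Cxcr2 in 3. The 8 macrophage markers also all had higher means in SHH livers, with a median difference of 0.72, against 0.75 for the neutrophil markers. In 1 of them (Cd163) every SHH liver lay above every GFP liver (5.26% of all genes). At an unadjusted p of 0.05, limma found 6 of the 8 macrophage markers and 5 of the 8 neutrophil markers higher (3.33% of all genes). The mean level of the 8 macrophage markers was 6.96, 7.13 and 7.95 in SHH livers, against 7.25, 6.39 and 6.28 in GFP livers. By this mean level GFP 6 lay above SHH 26 and SHH 28. Hepatocyte markers had a mean level of 12.70, 12.68 and 12.58 in SHH livers and 12.56, 12.56 and 12.63 in GFP livers, near the top of the signal range, where array signals can be compressed. Stellate cell, T and NK cell, and B and plasma cell markers had median differences of 0.12, 0.46 and 0.32, endothelial markers of -0.19 and bile duct markers of -0.02. Every SHH liver lay above every GFP liver in 2 of 5 B and plasma cell markers and 2 of 6 T and NK cell markers (5.26% of all genes). The first were Jchain (2.74-fold higher, limma, unadjusted p = 4.53e-05, adjusted p = 0.174) and Ighm (2.61-fold, limma, adjusted p = 0.409). The T cell genes were Cd3g (2.03-fold, limma, adjusted p = 0.49) and Cd8a (1.46-fold, limma, adjusted p = 0.524). All other markers of these 2 lists overlapped between the groups, and Klrb1c had a lower mean (difference -0.14). Cd8a lay below the array median in 4 livers, Cd3g in 3 and Jchain in 2. The part of any of these cell types in the metallothionein signal was not tested.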

How the data were processed

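Total RNA of the 6 livers was isolated with Trizol and biotin-labelled for Affymetrix arrays, per the labels' protocols. The deposited values are log2 signals made with RMA, per the submitters' processing notes, which equalises the arrays and summarises probes; its version is not given in the sources used here. A log2 scale was read from the values, which end near 13.7 on each array. Of 41345 probe sets, platform annotation paired 23521 with 1 gene, 1814 with several and 16010 with none. Each of 22180 genes was represented by its brightest probe set (mean of 6 arrays).

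The group comparison used limma (version 3.58.1, R 4.3.3; lmFit, eBayes, two-sided, Benjamini-Hochberg over all genes, threshold 0.05), with no filter and no covariate; the labels give no batch. An exact permutation test, whose smallest p with 3 against 3 mice is 0.1, was not used for single genes. Intervals (95%) are from the same fit. The fit was tested on simulated data with the same spread in both groups. It recovered 72.2% of changes of 1 and 99.8% of changes of 4 on the log2 scale. Mt2 had an SD of 2.14 in SHH livers and 0.19 in GFP livers, so these rates do not carry over to such genes. Promoters were read from a RefSeq table (GRCm38.p6), which held 6 of the 8 members. The number of arrays limits the precision.

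The members and gene lists were chosen with earlier results of these data known. Named genes were the members, genes of the metallothionein, ZIP and ZnT lists, up to 4 per other list by smallest unadjusted p, and the 8 most like Mt2; others are named only beside a count or a list's highest value, or as a marker of the tissue or of a cell type. Alternatives were other choices of probe set, normalization, a level filter, prior, array weights, a threshold of 0.1 and each mouse left out.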

Additional observations from a re-analysis of the deposited data

How the results depend on the processing

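The counts of genes called over all genes, 0 higher and 0 lower, were 0 under each probe set choice, normalization, level filter, prior, array weight and threshold tried. Leaving out 1 mouse gave 0 to 30 genes higher and 0 to 16 lower, with 30 and 16 without SHH 26 and 0 without any other mouse. Of the list genes that are not members, 0 to 5 were called higher when 1 mouse was left out, 5 without SHH 26, and 0 lower. Genes with every SHH liver above every GFP liver numbered 734 in place of 1166 among genes above the median level, where fewer genes were counted, and those with every SHH liver below 838 in place of 1607. With 1 mouse left out, which makes such separation easier, they numbered 1994 to 2377 and 2556 to 3111. The Mt1 difference ranged over 2.66 to 3.86 and that of Mt2 over 3.50 to 5.51 when each mouse was left out. With array weights they were 2.85 and 3.93. Slc39a14 ranged over 0.27 to 0.75 and Slc39a4 over 0.46 to 0.68, while Mtf1 (-0.10 to 0.10) and Slc39a8 (-0.19 to 0.15) took either sign. Each member has 1 probe set, so the choice of probe set could not change its value. No paired analysis was possible because the groups share no mouse numbers and the labels name no litter, day or batch. With 3 mice a group and 1 SHH liver apart from the others, the size of the metallothionein difference is poorly fixed.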
